A study of Mus musculus with 148 samples.

Results

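The cytokine genes Ifng, Xcl1 and Tnf were read as 3 of the 52634 gene rows of plate-based single-cell RNA-seq tables, made from immune cells of mice with EO771 breast tumors and lung metastases. Their levels were described in the T cell, natural killer (NK) cell and, for Tnf, myeloid subpopulations of the deposited annotation, and compared between tissues. All mice were C57BL/6 PA-GFP, a strain whose green fluorescent protein can be switched on by light inside a chosen niche. EO771 is a mouse mammary carcinoma line, here labelled with tdTomato and injected into a mammary gland of females at 8 weeks of age. The 63 samples of 27 mice were lungs of 3 Normal mice, lungs of 3 Pre-MET mice that still bore their tumor, 6 Relapse-free lungs, 4 Primary tumors, 14 samples of Distal normal tissue, 13 of MET, 13 of MET Core and 7 of MET Invasive margin. In the Relapse-free and metastatic groups the tumor had been removed after 3 weeks. No group received a drug. Cells were sorted as CD31-CD45+, except that cores and margins were sorted as CD31- photoactivated cells and Relapse-free lungs by both gates, so the gate differs between a core and a primary tumor.

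IFN-γ, encoded by Ifng, is released by activated T and NK cells, signals through the receptor chains Ifngr1 and Ifngr2, and induces chemokines, GTPases and antigen presentation in the cells that receive it. XCL1 is a chemokine of NK cells and CD8 T cells that attracts type 1 conventional dendritic cells (cDC1), which carry its receptor Xcr1. TNF is made by lymphocytes and by myeloid cells, signals through Tnfrsf1a and Tnfrsf1b, and induces NF-κB target genes.

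The promoters of the members are printed because transcription of all 3 genes can be switched on by activation signals, to which factors such as NFAT (core letters GGAAA) and NF-κB respond. Each stretch runs 5′ to 3′ on the strand of the gene, from 250 bases before the start to 50 bases after it (RefSeq, GRCm38.p6). Capitals mark the letters GGAAA or, for the other strand, TTTCC. The Ifng stretch is chr10:118440796-118441095 on the plus strand, the Xcl1 stretch chr1:164935473-164935772 on the minus strand, and the Tnf stretch chr17:35201958-35202257 on the minus strand.
Ifng: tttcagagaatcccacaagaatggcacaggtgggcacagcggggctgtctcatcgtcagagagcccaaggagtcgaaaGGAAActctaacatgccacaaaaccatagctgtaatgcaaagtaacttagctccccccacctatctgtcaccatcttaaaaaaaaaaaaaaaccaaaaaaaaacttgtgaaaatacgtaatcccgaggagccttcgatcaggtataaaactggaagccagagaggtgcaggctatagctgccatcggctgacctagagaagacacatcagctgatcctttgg
Xcl1: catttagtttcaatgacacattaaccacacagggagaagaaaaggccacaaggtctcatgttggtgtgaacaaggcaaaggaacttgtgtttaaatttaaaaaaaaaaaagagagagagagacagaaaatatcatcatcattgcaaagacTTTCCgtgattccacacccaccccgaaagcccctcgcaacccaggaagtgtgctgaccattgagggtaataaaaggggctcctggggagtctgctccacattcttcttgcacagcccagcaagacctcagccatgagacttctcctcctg
Tnf: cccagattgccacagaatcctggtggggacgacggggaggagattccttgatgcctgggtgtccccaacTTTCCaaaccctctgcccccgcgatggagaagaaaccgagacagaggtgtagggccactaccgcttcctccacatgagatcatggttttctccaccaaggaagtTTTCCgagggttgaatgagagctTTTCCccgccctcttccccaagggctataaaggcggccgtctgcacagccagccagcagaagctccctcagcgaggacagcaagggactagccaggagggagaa

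The NFAT core was found once in the Ifng stretch, once in the Xcl1 stretch and 3 times in the Tnf stretch, and 61.3% of 32851 mouse promoters of this length hold it on either strand. The NF-κB pattern, GGG followed after 5 letters of any kind by CC, was found at 2 places in Tnf and at none in the others, against 50.8% of all promoters. The AP-1 letters TGANTCA were found in none of the 3, against 7.81% of all promoters, and the letters TGACG in Ifng, against 20.8%. The letters TATAAA stood from -30 to -25 in Ifng and from -29 to -24 in Tnf, counted from the start, and 13.6% of promoters hold them anywhere. Xcl1 had the shorter ATAAA at -32 to -28, which is contained in TATAAA and found in 40.0% of promoters. Such matches describe letters and not binding.

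In the GENCODE vM21 annotation of mm10, the build of the deposited counts, Ifng lies at chr10:118441046-118445892 with 4 exons in its longest transcript, Xcl1 at chr1:164931644-164935527 with 3, and Tnf at chr17:35199381-35202007 with 4. Lta and Ltb, which encode the lymphotoxins and were named after their values were seen, lie 1157 and 3060 bases from Tnf. Lta had 0 UMIs in all immune cells and Ltb had 10424. A UMI (unique molecular identifier) marks 1 captured mRNA molecule. Because 3′ ends were sequenced, levels are given in CPM, the UMIs of the gene per 1e+06 UMIs of the sum, and not per length. The noncoding gene Gm20743, antisense to Xcl1, had 3 UMIs.

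The 23425 immune cells held 44678167 UMIs, with 55 to 1974 cells per sample. The median sample had 3524.5 UMIs per cell in Primary tumors, and the other groups had 812 to 1201. The 592 wells left empty held 8490 UMIs and none from a member. Cells were sequenced in 12 batches, numbered here in the order of their labels. The Normal lungs were alone in theirs, and the Primary tumors of mice 9, 10 and 38 were alone in another. The labels were checked against their defining markers. All 8 T cell markers and all 6 NK markers were detected in T_CD8_Lag3, T_CD8_Gzmk, NK_Ncr1 and NK_Xcl1. The summed T markers had a median of 8919 CPM in T_CD8_Lag3 and 778 in NK_Xcl1, and the summed NK markers 2898 CPM in NK_Xcl1 and 818 in T_CD8_Lag3. The annotation comes from clustering on these genes, and NK_Xcl1 is named for a member, so differences between labels are given without a test.

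Few Ifng UMIs were counted in these tables. In all immune cells 4 UMIs were counted in 3 cells, all of them lymphocytes from metastases. A T_CD8_Lag3 cell from the core of mouse 36 held 2 UMIs, an NK_Xcl1 cell from the same core held 1, and a T_CD8_Lag3 cell from the MET sample of mouse 26 held 1. These cells held 1647 to 2942 UMIs each. A further 2 UMIs were in 1 cell labelled Erythrocytes, from Distal normal tissue of mouse 17. Over the 9356 T and NK cells the level was 0.295 CPM, and a count of 0 in all immune cells would have allowed a share of cells with a UMI of up to 0.0128%. Other effector genes of the same cells were counted more often, and 19 of 21 listed ones had more UMIs in T and NK cells than Ifng. Ccl5, a chemokine of effector lymphocytes, had 168239 UMIs and Gzma, a granule protease, had 51435, both named after their values were seen. Ifng passed the filter on low counts of no comparison, and with no filter the 5 edgeR tests that included it gave adjusted p-values from 0.432 to 0.724, so no difference between tissues was detectable from these counts. The gene model Gm49751 overlaps Ifng on the same strand and has no row in the tables. Per the paper, genes whose exons overlapped on a strand were counted under a joined symbol, and Ifng had a row of its own. Whether reads of Ifng were lost in the authors' counting was not tested. The genes whose pattern over 27 labels was most like that of Ifng were C2cd4b, Slc16a11, Ccl1, Gldc and Nrgn (Pearson r 0.89 to 0.69, a description that rests on these 4 UMIs).

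Xcl1 was a lymphocyte gene in these data, with 97.8% of its 3863 immune UMIs in T and NK cells. Its level was highest in NK_Xcl1, the label named for it, with 3285 ± 4284 CPM (SD, n = 14 samples of 5 or more cells) and a UMI in 54.5% of 198 cells (95% Clopper-Pearson interval 47.3 to 61.6%). The next label was T_CD8_Lag3, named for the inhibitory receptor Lag3, with 1293 ± 2670 CPM (n = 23) and a UMI in 15.3% of 347 cells (11.7 to 19.5%). NK_Ncr1 followed with 318 ± 293 CPM (n = 56) and 9.00% of 2312 cells, and T_CD8_Gzmk with 230 ± 265 CPM (n = 54) and 9.06% of 1612 cells. The spread over samples exceeded the distance between T_CD8_Lag3 and its neighbour on either side, and NK_Ncr1 and T_CD8_Gzmk differed by less than their SD.

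**Figure D1:**
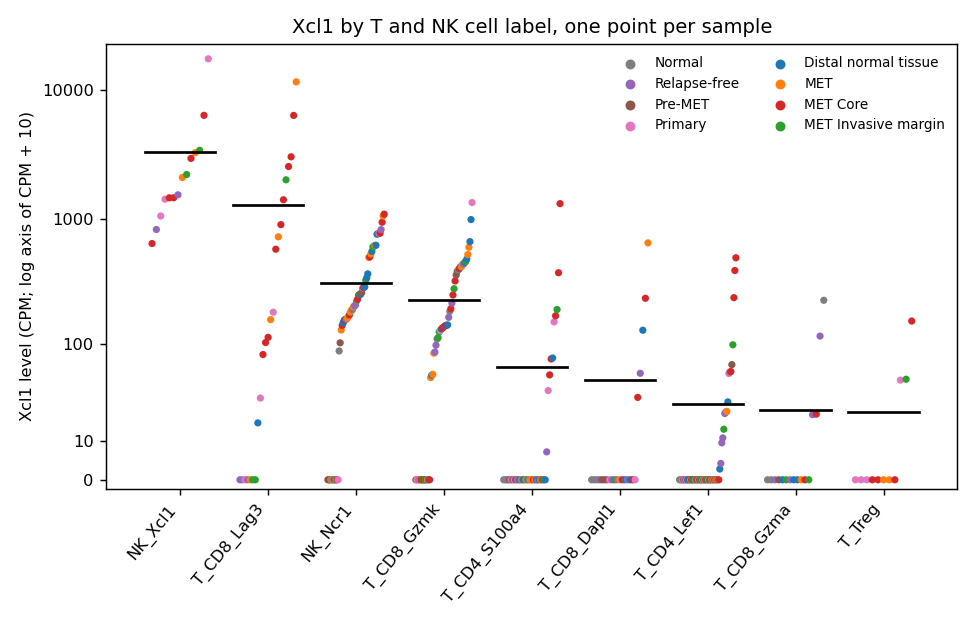
Xcl1 level in CPM (log axis of CPM + 10) in the 9 T and NK cell labels. Each point is 1 sample with 5 or more cells of the label, colored by tissue, and bars are means. NK_Xcl1 has no sample at 0, T_CD8_Lag3 runs from 0 to 11475 CPM, and 29 of 39 samples of T_CD4_S100a4 are at 0.

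The remaining T cell labels had lower means over samples, from 23.1 CPM in T_Treg to 63.4 CPM in T_CD4_S100a4. Over all 206 T_Treg cells, including samples with fewer than 5, the level was 190.2 CPM with a UMI in 3.88% of cells, against 247 CPM in T_CD8_Gzmk, and most of those UMIs came from 1 cell. In T_CD4_Lef1, 40 of 57 samples were at 0. In B cells, which should lack the transcript, 0.569% of 1055 cells held an Xcl1 UMI at a median of 1001 UMIs per cell, against 1337 in NK_Xcl1, 1200 in T_CD8_Lag3 and 933.5 in T_CD4_Lef1. The share in T_CD4_Lef1, 1.22%, has an interval of 0.862 to 1.68% that overlaps the 0.209 to 1.23% of B cells. After thinning each cell to 500 UMIs, NK_Xcl1 was at 40.0%, T_CD8_Lag3 at 11.6%, NK_Ncr1 at 5.95% and T_CD8_Gzmk at 5.65%, with B cells at 0.303%. NK_Ncr1 and T_CD8_Gzmk changed order by this share, from 9.00% and 9.06% before thinning. Intervals cover counting error only.

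Few cells carried much of the signal. The 10 richest cells held 52.4% of the Xcl1 UMIs of NK_Xcl1 and 75.6% of those of T_CD8_Lag3. A single NK_Xcl1 cell from the primary tumor of mouse 10 held 308 of its 8386 UMIs as Xcl1. In T_Treg, 59 of 91 UMIs were in 1 core cell of mouse 37. A Tnf UMI was found in 3 of 108 Xcl1-positive NK_Xcl1 cells and in none of the other cells of that label, and in 5.66% of 53 Xcl1-positive T_CD8_Lag3 cells against 2.38% of the others. After thinning to 500 UMIs, the T_CD8_Lag3 shares were 3.85% and 1.46%, and all of these rest on 3 cells per label with both genes. None of the 208 Xcl1-positive NK_Ncr1 cells held a Tnf UMI, which allows a share of cells with a UMI of up to 1.44% at this depth. It sets no limit on expression below detection.

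Which cells made up the Xcl1 sum differed between tissues. NK_Xcl1 was 65.3% of the 49 NK cells of Primary tumors and gave 96.0% of their 498 Xcl1 UMIs, with 308 of them in 1 cell. In MET Core it was 20.3% of 389 NK cells and gave 76.0% of the UMIs, while in Distal normal tissue it was 3.39% of 295 NK cells and gave 17.2%. Among T cells, T_CD8_Lag3 was 14.9% of 1220 core cells and gave 54.5% of their Xcl1 UMIs, against 7.18% of 404 primary tumor cells and 5.66% of the UMIs there. The label gave 44.0% in Normal lungs, from 6 cells, 62.8% in MET and 67.3% in margins. A single cell held 83 of its 98 UMIs in MET, and another 129 of its 142 in margins. It gave 5.74% in Relapse-free lungs, 1.35% in Distal normal tissue and 0% in Pre-MET lungs. A sum over a lineage mixes the number of cells that express a gene and the RNA per cell, and the shares above were not tested.

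Primary tumors and MET Core were compared to see how the niche of a tumor and that of a metastasis differ, though no mouse gave both. The gate differed between them as well. Per the paper, lungs and tumors were also dissociated with different programs, whose part was not tested. In T cells, the mean Xcl1 level was higher in MET Core than in Primary tumors, and the difference did not pass the test. The 4 Primary samples had 0, 4.21, 90.9 and 286 CPM (mice 8, 9, 10 and 38), and the 13 cores ran from 0 to 1062 with a median of 378 CPM. The groups overlapped, and 8 of the 13 cores lay above every tumor. edgeR gave a log2 fold change of 1.88 ± 0.71 (SE) in favor of the core with an adjusted p of 0.161, in a fit that called 0.592% of 2197 genes. The exact permutation test on log2(CPM + 10), added after the data were seen, gave a difference of 2.33 (p = 0.0613, adjusted over 10 member tests 0.307). Without Primary mouse 10 or mouse 38 it gave 2.71 (exact p = 0.0446) and 3.23 (exact p = 0.0179), and without mouse 8 or mouse 9 it gave 1.60 (exact p = 0.232) and 1.77 (exact p = 0.198). The tumors of mice 9, 10 and 38 were in a batch without cores, so batch and tissue cannot be told apart for them in any of these comparisons. Within the 1 batch that held both tissues, the tumor had 0 and the cores 744 and 804 CPM. Beside this, the 4 summed neutrophil markers in T cells, all detected, ranged from 17.7 to 59.5 CPM in tumors and from 15.3 to 2107 CPM in cores. Their part in the result was not tested.

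The CD8 cells labelled T_CD8_Lag3 showed the same direction. Primary tumors had 0, 32.5 and 184 CPM in mice 8, 38 and 10, and 9 cores ran from 81.8 to 6329 with a median of 907 CPM. The groups overlapped in that 3 cores, from mice 25, 30 and 26, lay below the highest tumor. The difference in log2(CPM + 10) was 4.04 (exact permutation p = 0.0273, adjusted over 22 tests of labels 0.300), and it fell short of p = 0.05 without Primary mouse 8 (2.98, exact p = 0.145) or mouse 38 (4.02, exact p = 0.0909). By the share of cells with a UMI after thinning, 12.95% ± 8.94 in cores against 3.75% ± 4.16 in tumors, the exact permutation p was 0.114. The values rest on 5 to 58 cells per sample. In the shared batch the tumor had 0 and the core 2554 CPM.

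In NK cells the direction was the opposite. The 2 Primary samples with 10 or more NK cells had 861 CPM (mouse 38, 26 cells) and 7695 CPM (mouse 10, 10 cells), against 130 to 2824 CPM with a median of 736 in 11 cores. edgeR gave -2.26 ± 0.57 with an adjusted p of 0.0508, in a fit that called 0.187% of 1070 genes, and the adjusted p was 0.352 with DESeq2. The fold rested on the single cell with 308 UMIs. Without that cell the Primary mean fell from 4278 to 902 CPM, against 1003 CPM in cores, and without mouse 10 the log2 fold change was -0.07. The exact permutation test gave a difference of -2.02 (p = 0.141, where 0.0128 is the smallest p that 2 against 11 samples allow). Within NK_Xcl1, 3 tumors had 1058, 1428 and 17269 CPM and 5 cores 646, 1464, 1466, 2952 and 6338 CPM, with an exact permutation p of 0.679, and without mouse 10 the difference turned from -0.63 to 0.64. In the shared batch 1 tumor had 1428 and 1 core 2952 CPM.

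**Figure D2:**
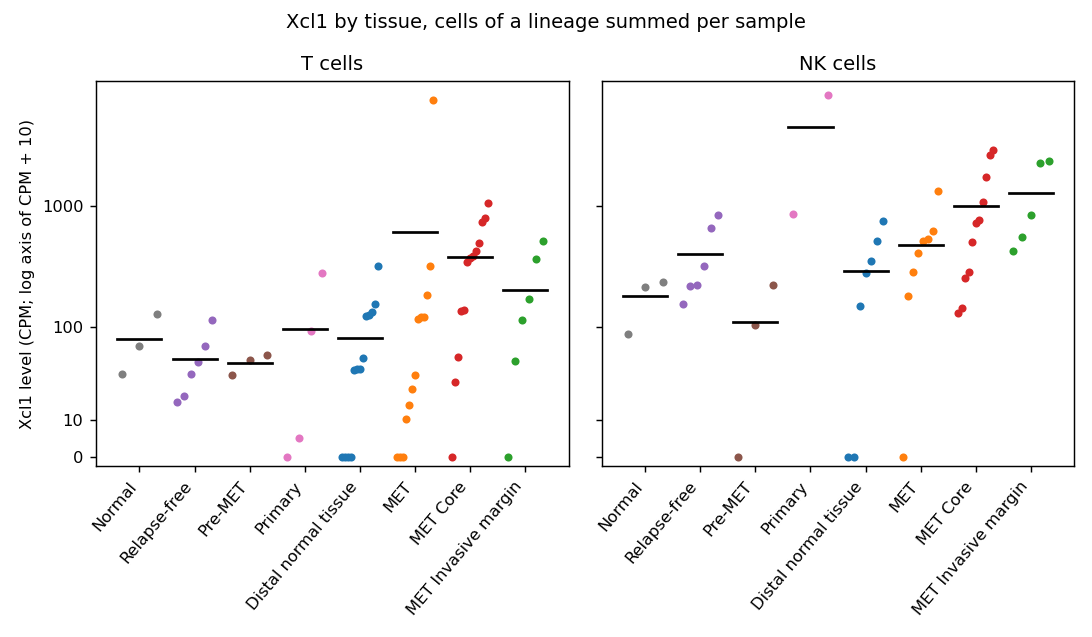
Xcl1 level in CPM (log axis of CPM + 10) in all T cells and all NK cells by tissue. Each point is 1 sample with 10 or more cells of the lineage and bars are means. T cells of Normal, Relapse-free and Pre-MET lungs lie below 130 CPM, and the MET mean is set by the sample of mouse 26 at 7067 CPM.

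T cells of lungs without metastases held little Xcl1. This was not particular to them, since the medians were 41.1 CPM in Distal normal tissue and 35.1 CPM in MET. Normal lungs had 36.6, 67.7 and 129 CPM, Pre-MET lungs 35.7, 49.4 and 56.0 CPM, and Relapse-free lungs 17.8 to 115 with a median of 42.0 CPM. In NK cells, Normal lungs had 86.4, 220.1 and 241 CPM, Pre-MET lungs 0, 103 and 229 CPM, and Relapse-free lungs 158 to 851 with a median of 277 CPM. All groups overlapped. No difference between Normal and Pre-MET lungs passed the edgeR test in T cells (-0.70 ± 0.66, adjusted p = 0.684, 1.74% of 3218 genes called) or in NK cells (-1.11 ± 0.95, adjusted p = 0.775, 0 of 1579 genes called and 137 at an unadjusted p under 0.05; DESeq2 called 2). Normal lungs were alone in their batch, so batch and group cannot be told apart there.

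MET samples were compared with Distal normal tissue, mostly of the same mice, to ask what changes close to the lesion, and no Xcl1 difference passed a test. T cells of Distal normal tissue had 0 to 324 with a median of 41.1 CPM (n = 13) and those of MET 0 to 7067 with a median of 35.1 CPM (n = 13), and the ranges overlapped. The MET mean of 618 CPM came from mouse 26, where 1 T_CD8_Lag3 cell held 83 UMIs, and was 80.2 ± 100 CPM without that sample, against 80.0 ± 93.0 CPM in distal tissue. The permutation test gave 0.48 (p = 0.608) with it and -0.08 (p = 0.915) without it, and batches 7, 9 and 11 (SB118, SB124 and SB128) gave -0.11, 1.27 and 0.67. Xcl1 did not pass the filter of the T cell fit, which called 0 of 394 genes (16 at an unadjusted p under 0.05, 1 by DESeq2 and 1 with a block by mouse), and with no filter edgeR gave 2.36 ± 0.59 (adjusted p = 0.0645). In NK cells, 7 distal samples had 0 to 755 with a median of 287 CPM and 8 MET samples 0 to 1315 with a median of 465.9 CPM. edgeR gave 0.57 ± 0.48 (adjusted p = 0.987, 0 of 514 genes called and 13 at an unadjusted p under 0.05; DESeq2 and a block by mouse called 0), and batches 7 and 11 gave 1.34 and 0.96.

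Cores were compared with Invasive margins to ask whether position within a lesion matters, and no Xcl1 difference passed the adjusted tests. T cells of the margin had 0, 48.8, 115, 174, 373 and 519 CPM, with a median of 144 CPM, below the core median of 378 CPM but within its range. edgeR gave 0.79 ± 0.58 in favor of the core (adjusted p = 0.998, 0 of 1195 genes called by edgeR or DESeq2 and 24 at an unadjusted p under 0.05), and blocking by mouse gave 1.07 and called 3 genes, Xcl1 not among them. Batches 6, 7, 9 and 11 (SB112, SB118, SB124 and SB128) gave -0.40, 1.80, 0.16 and 2.65. Batches 6 and 11 held 1 margin each, of mice 17 and 36, and batch 6 also 1 core. NK cells of 5 margins had 431 to 2294 with a median of 845 CPM, and edgeR gave -0.33 ± 0.54 (adjusted p = 0.993, 0 of 425 genes called by edgeR or DESeq2 and 0 at an unadjusted p under 0.05). In T_CD8_Lag3 the margins of mice 33 and 36 had 0 and that of mouse 31 had 2017 CPM, against 81.8 to 6329 CPM in 9 cores (difference 3.61, exact permutation p = 0.0955). With 1 margin at a time left out the difference ranged from 2.33 to 6.16. The value of 6.16 was without mouse 31 (exact permutation p = 0.0182, the smallest that so few margins allow). Of 2 mice with both samples, the core was higher in 1 and lower in 1. One T_CD8_Lag3 cell of the margin of mouse 17, a sample with too few such cells for the test, held 129 Xcl1 UMIs.

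The receptor of XCL1 was highest in the type 1 dendritic cells. Xcr1 had 105 ± 143 CPM in DC_cDC1 (n = 18), 17.5 ± 53.2 CPM in T_Treg as the next label, and at most 11.1 CPM in all others, from 189 UMIs in immune cells. It passed the filter of no comparison. The genes whose pattern over the 27 labels was most like that of Xcl1 were Tox, a regulator of exhausted CD8 T cells and of NK cell development (r = 0.91), Il2rb, a chain of the IL-2 and IL-15 receptors, Abcb9, a lysosomal peptide transporter, Gzmb, a granule protease, and Nkg7, a granule membrane protein (0.89). Tox was highest in T_CD8_Lag3 at 188 ± 218 CPM and Nkg7 in NK_Ncr1 at 9469.8 ± 3051 CPM. These correlations share libraries and depth.

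Tnf was mostly a myeloid transcript here. Of 2152 immune UMIs, 7.39% were in T and NK cells. Its level was highest in Neut_PMN-MDSC, named for polymorphonuclear myeloid-derived suppressor cells, with 473 ± 496 CPM (n = 10) and a UMI in 23.0% of 139 cells (16.3 to 30.9%). Neut_Ptgs2 had 188 ± 355 CPM (n = 38), Mac_Gpnmb 183 ± 211 CPM (n = 24), Mac_Isg20 168 ± 192 CPM (n = 24), Mac_Cd9 130 ± 188 CPM (n = 17) and Mon_Thbs1 99.9 ± 148 CPM (n = 35). None of these neighbours in the order differed beyond their spread. After thinning to 500 UMIs the share was 15.8% in Neut_PMN-MDSC, 6.89% in Mac_Gpnmb, 5.31% in Mac_Isg20, 4.63% in Mac_Cd9 and 3.89% in Neut_Ptgs2, against 0.202% in B cells.

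**Figure D3:**
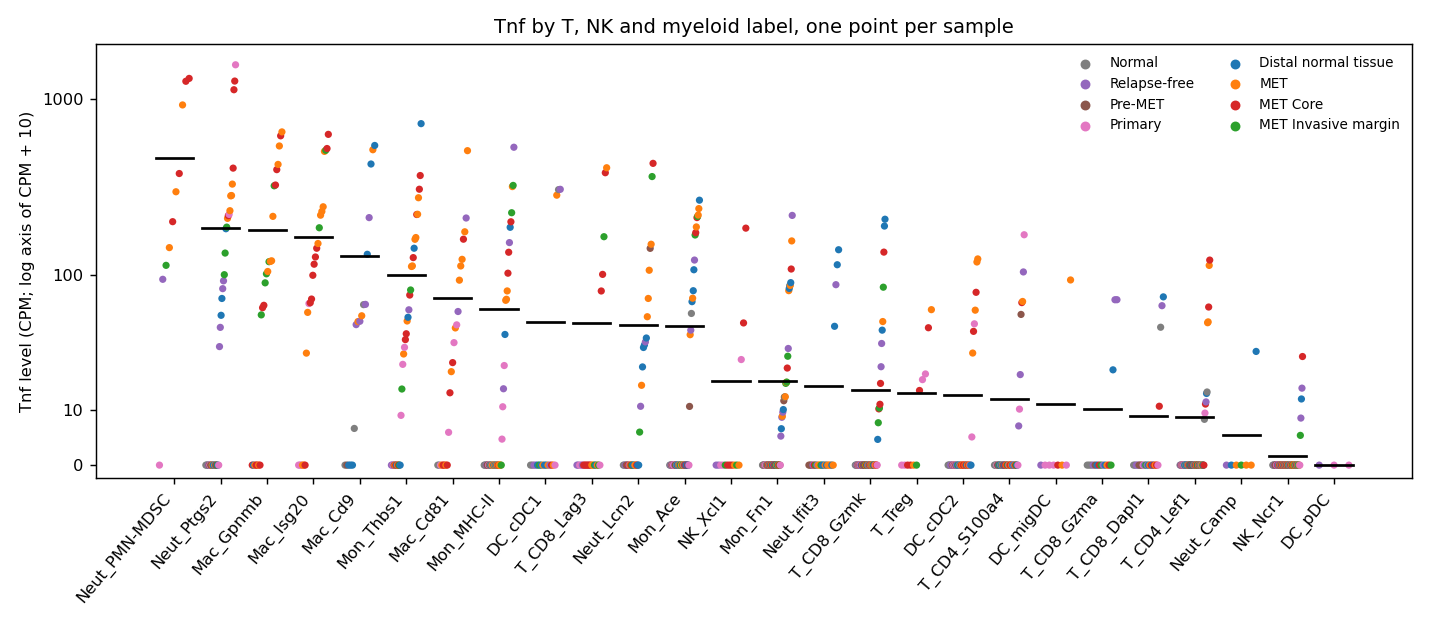
Tnf level in CPM (log axis of CPM + 10) in 26 T, NK, monocyte, macrophage, neutrophil and dendritic cell labels, ordered by mean. Each point is 1 sample with 5 or more cells of the label, colored by tissue, and bars are means. Neutrophil, macrophage and monocyte labels lead, and most lymphocyte samples are at 0.

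Among lymphocytes the mean Tnf level over samples of 5 or more cells was highest in T_CD8_Lag3, with 50.1 ± 119 CPM (n = 23, of which 18 samples at 0) and a UMI in 2.88% of cells. The order changed with the measure, since the share of cells was 3.40% in T_Treg, and the level over all cells of a label was 30.9 CPM in T_CD8_Gzma, 26.8 in NK_Xcl1 and 23.4 in T_CD8_Lag3. The NK labels had means of 19.02 ± 50.9 CPM in NK_Xcl1 (n = 14) and 1.27 ± 4.85 CPM in NK_Ncr1 (n = 56, of which 51 at 0), from 11 and 8 UMIs. The share of NK_Ncr1 cells with a UMI, 0.260% at a median of 986.5 UMIs per cell, was not above that of B cells, 0.569% at 1001. The intervals of NK_Ncr1, 0.0953 to 0.564%, and T_CD4_Lef1, 0.430 to 1.06%, overlapped that of B cells, 0.209 to 1.23%. B cells can make TNF themselves. In Neut_PMN-MDSC the cores of mice 28, 17, 37 and 36 had 205, 385, 1254 and 1300 CPM, the MET samples of mice 31, 37 and 32 had 145, 304 and 928 CPM, and the single Relapse-free, margin and Primary samples had 94.1, 114 and 0 CPM. The values rest on 5 to 30 cells a sample, and no comparison between tissues had enough samples.

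Macrophages of MET Core had more Tnf than those of Primary tumors before adjustment. The 4 tumors had 0, 4.75, 31.1 and 55.9 CPM (mice 10, 9, 8 and 38), and the 10 cores ran from 8.87 (mouse 30) to 810 CPM (mouse 37) with a median of 74.5. Tumors 10 and 9 lay below every core, and 7 cores lay above every tumor. The exact permutation test on the lineage sum, added after the data were seen, gave a difference in log2(CPM + 10) of 2.07 (p = 0.0360, adjusted over 10 tests 0.307), and 1.63 without mouse 10 (exact p = 0.105) or 1.81 without mouse 9 (exact p = 0.0839). Tnf did not pass the filter of the edgeR fit, which called 4.53% of 2162 genes. With no filter edgeR gave 2.67 ± 0.64 (adjusted p = 0.00526), with sums of 5 or more cells 2.97 ± 0.92 (adjusted p = 0.0566), and with cells of 1000 or more UMIs 3.25 ± 1.03 (adjusted p = 0.0908). Tnf passed the edgeR filter when 1 tumor was left out, and the fold then depended on which: 2.53 without mouse 10 (edgeR adjusted p = 0.214), 2.66 without mouse 9 (0.215), 3.09 without mouse 8 (0.103) and 4.86 without mouse 38 (0.0394). In the batch that held both tissues the tumor had 31.1 and the cores 382 and 810 CPM.

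The label Mac_Isg20 was 13.4% of macrophages in Primary tumors and 56.6% in cores, and within it the mean Tnf level was higher in cores, without passing the adjusted test. Its tumors had 0, 0, 0 and 66.7 CPM and its 9 cores 0 to 637 with a median of 116 CPM, with 8 cores above every tumor. The difference was 2.89 (exact permutation p = 0.0140, adjusted over 22 tests of labels 0.300), and it remained between 2.64 and 3.62 when each tumor was left out. By the thinned share of cells, 7.28% ± 6.43 in cores against 0.773% ± 1.55 in tumors, the exact permutation p was 0.0727. The tumors' values rest on 26 cells and 3 UMIs. Beside both results, the summed neutrophil markers in macrophages ranged from 38.2 to 152 CPM in tumors, with 3 of 4 detected, and from 62.0 to 1748 CPM in cores, with all detected. The 7 summed T and NK markers, all detected in both, ranged from 4.18 to 146 CPM and from 41.4 to 327 CPM. Their part in the results was not tested. Monocytes had 2.30 to 22.1 CPM in tumors and 0 to 208 with a median of 57.6 CPM in cores, and the groups overlapped (difference 1.303, exact permutation p = 0.167). The monocyte fit called 1.47% of 1835 genes without testing Tnf, and with no filter edgeR gave 2.26 ± 0.64 (adjusted p = 0.0362).

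**Figure D4:**
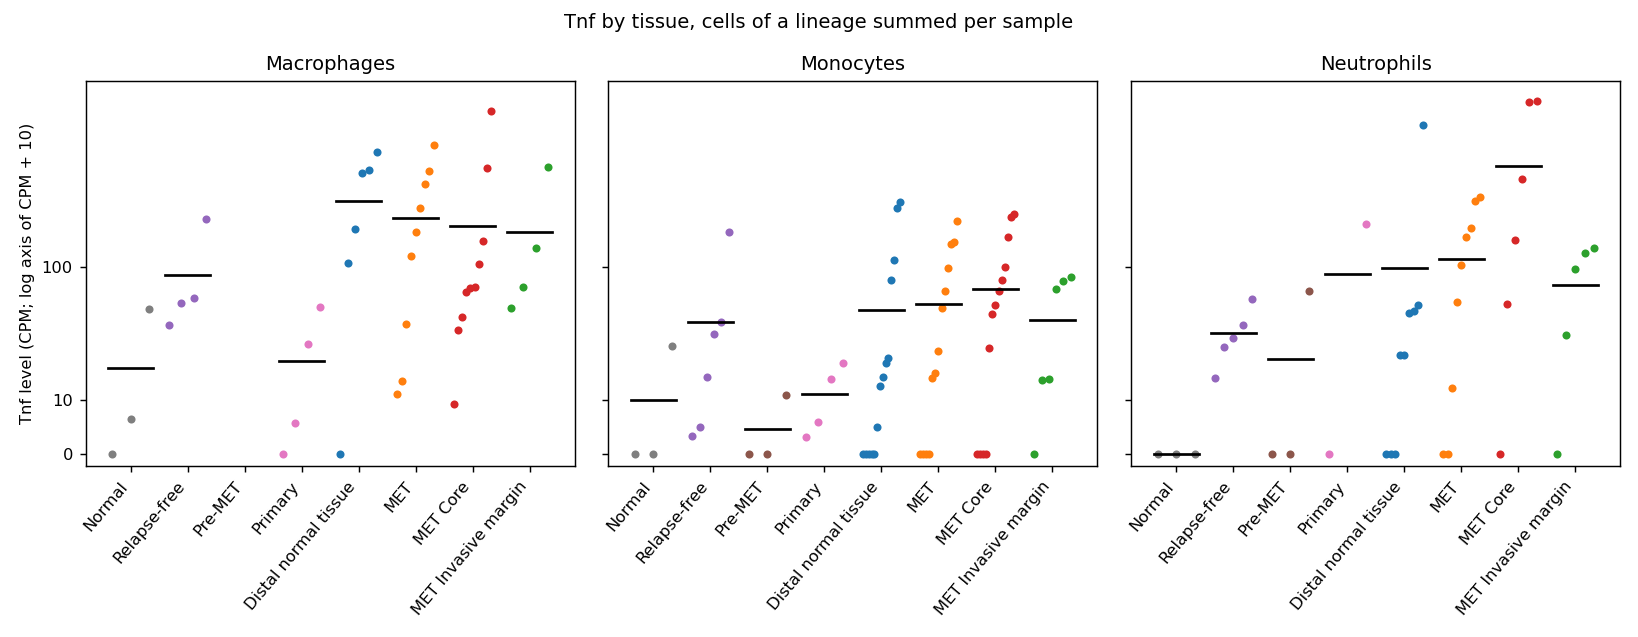
Tnf level in CPM (log axis of CPM + 10) in macrophages, monocytes and neutrophils by tissue. Each point is 1 sample with 10 or more cells of the lineage and bars are means. Macrophage samples of Primary tumors lie between 0 and 55.9 CPM and those of MET Core between 8.87 and 810 CPM, and no Pre-MET sample had 10 macrophages.

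No Tnf difference between MET and Distal normal tissue or between core and margin passed a test. Macrophages of Distal normal tissue had 0, 106, 170, 358, 373 and 470 CPM and those of MET 11.6 to 520 with a median of 163 CPM (n = 9), and edgeR gave 0.02 ± 0.65 (adjusted p = 0.993, 9.54% of 1289 genes called). That sign turned with other settings, to -0.10 with DESeq2, and batches 7 and 9 gave -0.88 and -1.93. Cores and margins gave 0.08 ± 0.76 in macrophages (adjusted p = 0.990, 0 of 1743 genes called and 178 at an unadjusted p under 0.05; DESeq2 called 12), -0.22 with a block over the 2 mice with both samples, and -0.56, 0.70 and 0.52 in batches 6, 9 and 11. The 4 margins had 54.9, 75.5, 131 and 386 CPM, inside the range of the cores, and batches 6 and 11 held 1 of them each. Paired by mouse, Tnf was higher in the core in 5 of 5 mice for monocytes (1.77, paired permutation p = 0.0625). It was higher in 4 of 4 for neutrophils (2.25, paired permutation p = 0.125) and lower in 2 of 2 for macrophages. So few mice allow no smaller p for monocytes or neutrophils. Over all samples, monocytes and neutrophils gave 0.25 and 1.51 (exact permutation p = 0.765 and 0.290). In Normal and Pre-MET lungs many sums held no Tnf, with monocytes at 0, 0 and 29.9 CPM against 0, 0 and 11.3 CPM and neutrophils at 0 in all 3 Normal samples against 0, 0 and 70.8 CPM. Normal macrophages had 0, 5.58 and 54.3 CPM, and in dendritic cells 1 of 3 Normal samples had 178 CPM and 1 of 3 Pre-MET samples 54.1 CPM, with the others at 0. No test passed the threshold there, and 3 against 3 samples cannot go below p = 0.10 in an exact test. Over all labels and lineages, permutation tests of the members gave p under 0.05 in 2 of 22 label tests and 1 of 10 lineage tests of Primary tumors against cores, in none of the 8 and 6 of Normal against Pre-MET, and in none of the 18 and 9 of either other comparison. None passed after adjustment.

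The genes most like Tnf over the 27 labels were Soat1, a cholesterol esterifying enzyme (r = 0.83), Il1a, an inflammatory cytokine, Cxcl1, a neutrophil chemokine, Clec4n, the fungal receptor dectin-2, and Plin2, a lipid droplet protein (0.81). Soat1, Il1a and Clec4n were highest in Neut_PMN-MDSC, at 447 ± 683, 419 ± 540 and 2921 ± 2110 CPM, Cxcl1 in Mac_Isg20 and Plin2 in Mac_Gpnmb.

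The receptors of IFN-γ and TNF were each detected over many labels. Ifngr1, the ligand-binding chain of the IFN-γ receptor, was highest in NK_Ncr1 at 1163 ± 715 CPM (n = 56) and detected in every label. Ifngr2, the signalling chain, was highest in Neut_Lcn2 at 189 ± 270 CPM (n = 32), with 1.37 ± 3.73 CPM in NK_Ncr1 and 1.08 ± 5.17 CPM in T_CD8_Lag3. The chains were thus ordered differently over the labels. Tnfrsf1a was highest in Neut_Lcn2 at 372 ± 359 CPM and Tnfrsf1b in Mon_Ace at 578 ± 322 CPM (n = 49). Tnfrsf1b fell in Pre-MET monocytes, and no other receptor passed a test in any fit.

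Cxcl10, Gbp2 and Igtp, which IFN-γ can induce, rose in monocytes of metastases. Of 20 listed IFN-γ pathway genes, 9 were tested between Distal normal tissue and MET, and 3 rose and none fell, in a fit that called 1.48% of 2098 genes, all higher in MET. The median log2 fold change was 0.60 over these 9 and 0.00 over all genes. Cxcl10, a chemokine for CXCR3-bearing lymphocytes, had 0 to 209 with a median of 29.4 CPM in 14 distal samples and 0 to 1038 with a median of 406 CPM in 13 MET samples (2.78 ± 0.55, adjusted p = 0.00198). Gbp2, an interferon-induced GTPase, rose from a median of 46.3 to 139.5 CPM (1.76 ± 0.38, adjusted p = 0.00485), and Igtp, another such GTPase, from 51.4 to 145 CPM (1.36 ± 0.33, adjusted p = 0.0216). The groups overlapped for each gene, and the level was higher in MET in 11 of 13 mice for Cxcl10, 13 of 13 for Gbp2 and 12 of 13 for Igtp. These genes also answer to other interferons. The summed T and NK markers in these monocytes, 7 of 7 detected in Distal normal tissue and 6 of 7 in MET, ranged from 5.53 to 161 CPM and from 4.72 to 186 CPM, and their part in the result was not tested. The monocytes also sat in different labels, with Mon_Thbs1 at 4.35% in Distal normal tissue and 25.9% in MET and Mon_Fn1 at 70.4% and 48.2%, whose part was likewise not tested. A fit with a block by mouse, which kept only the 13 mice with both samples and tested 1979 genes, called 79 genes where the fit without it called 31, and 8 against 5 genes of all lists. Cxcl10 and Gbp2 were called in it, and Igtp did not pass its filter. The samples and genes changed together with the block, so the difference in counts is not that of the block alone.

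**Figure D5:**
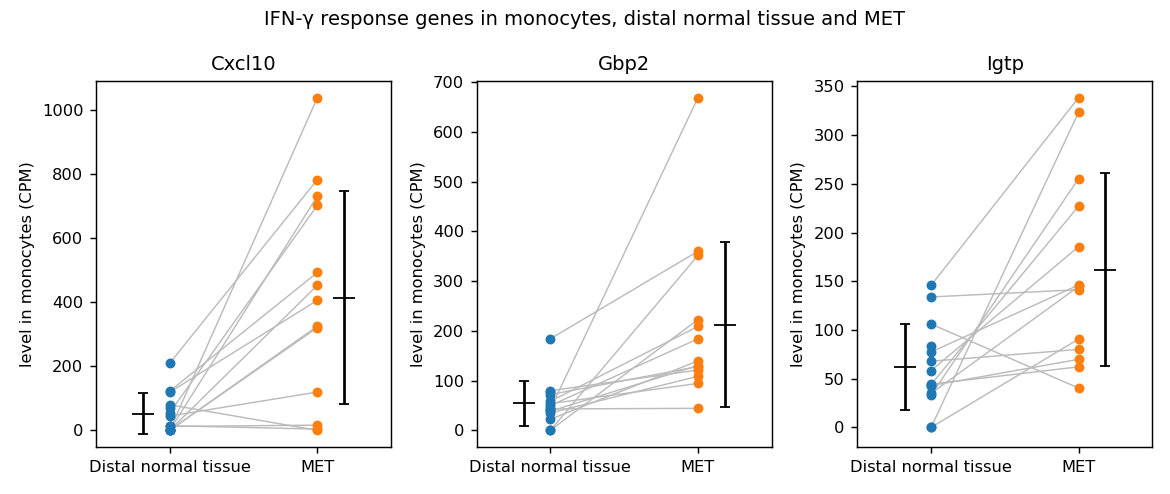
Levels of Cxcl10, Gbp2 and Igtp in monocytes (CPM, linear axes) in Distal normal tissue (14 samples) and MET (13 samples). Lines join samples of 1 mouse, and bars beside the points are mean ± SD. Lines rise in 11 of 13 mice for Cxcl10, 13 for Gbp2 and 12 for Igtp.

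In Pre-MET monocytes Cd274, an IFN-γ pathway gene that encodes PD-L1, fell from 81.3 ± 39.9 to 9.69 ± 6.15 CPM (n = 3 and 3, log2 fold change -3.07 ± 0.71, edgeR adjusted p = 0.0205), in a fit where 4.32% of 4953 genes were called and 2.02% were called lower. The call was lost without Normal mice 2 (-2.73) or 3 (-2.94) or Pre-MET mice 10 (-2.86) or 8 (-2.75). Mon_Ace was 58.6% of Normal and 22.4% of Pre-MET monocytes and Mon_Fn1 23.9% and 70.1%, and the part of these labels in the falls of Cd274 and of the other monocyte genes was not tested. Batch and group cannot be told apart for these falls, since the Normal lungs were alone in their batch.

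Against Primary tumors, 2 of 10 tested TNF pathway genes, 1 of 12 immediate early genes, 1 of 4 genes of effector induction and 1 of 3 other effectors rose in macrophages of cores and none fell, where 2.87% of genes were called higher. Cxcl2, a neutrophil chemokine, had 27.9 to 145 CPM in 4 tumors and 248 to 2134 in 10 cores, groups that do not overlap (3.14 ± 0.57, adjusted p = 0.00161). Nfkbia, the NF-κB inhibitor induced by NF-κB itself, rose by 1.80 ± 0.52 (adjusted p = 0.0470, lost when any 1 tumor was left out, 1.68 to 1.92). Egr1, an activation-induced transcription factor on both the immediate early and the effector induction list, rose by 2.19 ± 0.59 (adjusted p = 0.0307, lost without mouse 10, at 2.04, mouse 38, at 1.83, or mouse 9, at 2.11). Ccl3, a macrophage chemokine among the listed effectors, had 93.4 to 145 CPM in tumors and 243 to 1079 in cores, also without overlap (2.19 ± 0.40, adjusted p = 0.00166). Medians were 0.68 over the 10 TNF pathway genes and -0.01 over all. The cells also sat in different labels, with Mac_Cd81 at 82.5% of macrophages in tumors and 19.04% in cores and Mac_Isg20 at 13.4% and 56.6%, and the neutrophil markers in these sums ranged from 38.2 to 152 CPM and from 62.0 to 1748 CPM. The T and NK markers there had medians of 20.6 CPM in tumors and 132 CPM in cores, within ranges of 4.18 to 146 CPM and 41.4 to 327 CPM. The part of labels, markers, batch and the different dissociation programs of tumors and lungs in these results was not tested.

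Against Distal normal tissue, MET macrophages gave 1 of 8 TNF pathway genes and 4 of 11 immediate early genes higher and none lower, where 6.9% of genes were called higher. The macrophages sat in different labels, with Mac_Cd9 at 59.7% in Distal normal tissue and 8.83% in MET, Mac_Isg20 at 5.88% and 39.9%, and Mac_Gpnmb at 15.97% and 32.8%. The medians were 0.58 and 1.53, against 0.15 over all genes. The immediate early count and median included Hspa1a and Hspa1b, which had distal medians of 0 CPM. Genes this low in distal tissue could pass the low-count filter only with the help of MET samples. A rise of these genes was thus set in advance by the filter. Il1b, an inflammatory cytokine, had 112 to 430 CPM in 6 distal samples and 277 to 2006 in 9 MET samples (2.70 ± 0.43, adjusted p = 0.000835). Atf3, a stress-induced transcription factor, had 35.3 to 143 CPM and 173 to 584 CPM, without overlap (2.64 ± 0.49, adjusted p = 0.00153). The heat shock genes Hspa1a and Hspa1b rose by 3.97 ± 0.85 and 4.89 ± 1.14 from distal medians of 0 CPM. Ccl4, a chemokine of macrophages and lymphocytes, rose by 2.32 ± 0.71 in macrophages (adjusted p = 0.0370) and by 2.04 ± 0.40 in monocytes (adjusted p = 0.00181), and Ier3, an immediate early gene, by 1.40 ± 0.36 in monocytes (adjusted p = 0.0304). With a block by mouse, over the 5 mice with both samples, the macrophage fit called 120 of 762 genes, so calls were common in it. Among them were Il1b, Ccl4, Cxcl10, Ier3 and a further TNF pathway gene. Atf3, Hspa1a and Hspa1b did not pass the filter of that fit. Beside these results, the summed T and NK markers in macrophages ranged from 0 to 113 CPM in distal tissue, with 2 of 7 detected, and from 12.5 to 139 CPM in MET, with 6 of 7 detected. The 4 neutrophil markers, all detected, ranged from 157 to 3175 CPM and from 83.2 to 1763 CPM. The part of these markers and of the labels in the results was not tested. Immediate early and heat shock genes also answer to tissue dissociation, whose part was not tested.

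Between Normal and Pre-MET lungs, batch and group cannot be told apart for any result. In Pre-MET monocytes 2 of 19 TNF pathway genes fell, where 2.02% of genes were called lower. They were Tnfrsf1b (-1.06 ± 0.21, adjusted p = 0.00785, from 581 ± 79.1 to 284 ± 26.8 CPM) and Cd83, an activation marker (-2.22 ± 0.52, adjusted p = 0.0221). Nr4a1, a factor induced by receptor signalling, fell by 1.26 on the log2 scale (SE 0.19, adjusted p = 0.000797) and Dusp1, a phosphatase that limits MAP kinases, by 0.68 (SE 0.15, adjusted p = 0.0169). Calls were lost without Normal mouse 1 or Pre-MET mouse 10 for Tnfrsf1b (-0.90 and -0.97), without Normal mice 2 or 3 or Pre-MET mouse 9 for Cd83 (-1.94, -2.23 and -2.20), and for Dusp1 without any 1 sample but Normal mouse 3. Neutrophil markers in the same sums ranged from 275 to 665 CPM in Normal and from 1055 to 1993 CPM in Pre-MET lungs. Ccl5 fell by 3.27 and Gzma by 2.55 in these monocytes (adjusted p = 8.36e-05 and 0.0128), and Gzma lost its call without Normal mice 1 (-2.40) or 3 (-2.27) or Pre-MET mouse 10 (-2.23). The summed T and NK markers in these monocyte sums, a list that holds Gzma, ranged from 193 to 374 CPM in Normal and from 43.5 to 75.7 CPM in Pre-MET lungs with all 7 markers detected, and their part in the result was not tested. In T cells of Pre-MET lungs 1 of 5 tested effectors, Ccl5, fell (-1.52 ± 0.30, adjusted p = 0.0352), where 0.249% of genes were called lower. Normal lungs had 6816, 6995 and 12508 CPM and Pre-MET lungs 1581, 3496 and 4052 CPM, without overlap. The call was lost without Normal mouse 1, 2 or 3 or Pre-MET mouse 8 or 9 (-1.18 to -1.78). The summed NK markers in these T cells, all 6 detected, ranged from 398 to 622 CPM in Normal and from 136 to 357 CPM in Pre-MET lungs. T_CD8_Gzma was 8.07% of Normal and 2.07% of Pre-MET T cells, T_CD8_Gzmk 18.9% and 12.4%, and T_CD4_Lef1 54.2% and 64.1%. The part of the markers and of these labels in the result was not tested. No gene of the lists was called in NK cells, in neutrophils (1.06% of genes called between Normal and Pre-MET, and 0 of 715 between Distal normal tissue and MET, with 26 at an unadjusted p under 0.05 and 0 by DESeq2) or between margin and core. In monocytes, the fit of margin and core without a block called 0 of 1025 genes in 6 margins and 13 cores (84 at an unadjusted p under 0.05, 5 by DESeq2). The fit with a block by mouse, over the 5 mice with both samples, called 58 of 1354 genes, 6 of them from the lists, so that samples and genes tested changed with the block. In T cells the blocked fit called 3 of 1859 genes, 1 of them from the lists. No gene of the XCL1 receptor and cDC1 list was called in any fit without a block.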

How the data were processed

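Cells were sorted into wells of plates and 3′-end libraries were made by SPID-seq. Per the study's methods and the submitters' notes, the authors demultiplexed reads with bcl2fastq 2.15.0.4, mapped them to mm10 with HISAT, excluded reads that mapped to several places, counted UMIs per gene and cell, and discarded cells under 500 UMIs. The deposited tables hold these raw counts with no normalization, and the deposited annotation gives each cell's label. The 24020 annotated cells were used, without 336 Erythrocytes, 165 Outlier and 94 Tumor cells. Reads shared by near-identical genes are lost by this counting. Depth was 48306 to 2745794 UMIs per sample, so a single UMI is a large step in small sums.

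Counts were summed per mouse, tissue and label (5 or more cells) or lineage (10 or more cells). Lineage sums were tested with edgeR 4.0.16 (TMM, filterByExpr, quasi-likelihood F test, Benjamini-Hochberg adjusted p under 0.05, R 4.3.3). The SE given with an edgeR fold change is its absolute value divided by the square root of F. It is approximate and was not estimated by the fit itself. Members in labels were tested by two-sided exact permutation of log2(CPM + 10), or with 100000 resamples where both groups had 10 or more samples, and adjusted over each comparison's tests. Fold changes on that scale understate low genes. Whatever the order of naming, signs are Pre-MET minus Normal, MET Core minus Primary, MET minus Distal normal tissue, and MET Core minus MET Invasive margin. Lineage permutation tests, tests of the share of cells after thinning each cell to 500 UMIs, and tests without the richest cell or MET mouse 26 were added after the data were seen, because most member tests failed the edgeR filter. Cells are not replicates, mice are. The scripts were tested on simulated data. For a log2 fold change of 2, edgeR recovered from 40% (NK cells, Primary and MET Core) to 79% (neutrophils, Distal normal tissue and MET) of changed genes. Up to 13.6% of calls were false, in T cells of Distal normal tissue and MET. A change of that size could thus go uncalled.

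The members and gene lists were chosen with earlier results of these data known, and 1 gene of the IFN-γ pathway list is not reported here. Named genes are the members, up to 3 called genes per list, lineage and direction, the 5 genes most alike over labels among those with a mean of 50 CPM in a label, and the receptors. Samples of 1 mouse pair by the labels. The correlation of their deviations had medians of 0.244 in T cells and 0.179 in monocytes for Distal normal tissue and MET, and 0.379 and 0.465 for margin and core. Alternatives were RLE factors, DESeq2 1.42.0, no filter, 5 cells, cells of 1000 or more UMIs, a pseudocount of 100, a replicate block and leaving out samples. Python 3.11.15, scipy 1.17.1 and pandas 2.3.3 were used.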

Additional observations from a re-analysis of the deposited data

Results flagged for a closer look

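In 8 of 28 groups of 4 to 10 samples tested for 1 sample far from the rest, such a sample was found, where chance gives about 1 in 20 groups of normally distributed values. These CPM values are skewed, and the rate for such values was not measured. For Xcl1 in T_CD8_Lag3, MET mouse 26 had 11475 CPM and the next of 4 samples 729, with all 83 UMIs in 1 of 7 cells, and MET Core mouse 27 had 6329 CPM with the next of 9 at 3036, from 34 UMIs in 6 cells. For Tnf in macrophages, MET Core mouse 37 had 810 CPM against 382 in the next of 10 samples, and Relapse-free mouse 29 had 193 CPM, from 5 UMIs, against 63.9 in the next of 4. In monocytes, Relapse-free mouse 35 had 162 CPM of Tnf against 44.2 in the next of 6. In neutrophils, Distal normal tissue of mouse 31 had 674 CPM, from 5 UMIs in 11 cells, against 57.7 in the next of 9. In Mac_Isg20, MET mouse 31 had 512 CPM against 249.7 in the next of 9, and Primary mouse 38 had 66.7 CPM, from 3 UMIs, where the other 3 tumors had 0.

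Cells labelled Erythrocytes, which were in no comparison, held Xcl1 at 157 CPM, with 63 UMIs in 14 of 336 cells, above the limit that a count of 0 allows. The UMIs came from mouse 17, with 69.1 CPM in Distal normal tissue, 251 in MET Core and 69.9 in the margin, and from Relapse-free mouse 18, with 400.1 CPM. These samples were all in batch 6 (SB112), whose part was not tested. Of 6 samples with 5 or more such cells, 2 were at 0. A T or NK marker was also found in 13 of the 14 cells with Xcl1 and in 148 of the 322 without, 46.0%, and their median depths were 1329.5 and 951.5 UMIs.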

How the results depend on the processing

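Of 53 alternative values of a member's edgeR fold change 44 kept their direction and side of the threshold, as did 104 of 132 alternative values of the permutation tests, judged at an unadjusted p of 0.05. Of 195 values of other named genes, 148 kept theirs and 47 lost the call in the same direction. The cause of the changes below was not tested. Ifng, with 4 UMIs, was tested by edgeR only with no filter, and many sums hold few UMIs of a member, which limits their precision.

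Genes called between Normal and Pre-MET numbered 114 in T cells and 2 in NK cells with DESeq2, 0 in T cells and 127 in monocytes with cells of 1000 or more UMIs, and 13 in NK cells and 10 in neutrophils with no filter. Between Primary and MET Core, DESeq2 called 98 in T, 7 in NK, 80 in monocytes and 172 in macrophages, cells of 1000 or more UMIs 6 in T cells and 62 in macrophages, no filter 342 in T, 23 in NK, 320 in monocytes and 258 in macrophages, and in NK cells RLE factors 5 and sums of 5 cells 16. Between Distal normal tissue and MET, DESeq2 called 1 in T cells and 47 in monocytes, cells of 1000 or more UMIs 15 in monocytes and 59 in macrophages, and no filter 7 in T cells, 322 in monocytes, 461 in macrophages and 5 in neutrophils. Between margin and core, DESeq2 called 5 in monocytes and 12 in macrophages, no filter 91 and 17, 5 cells 3 and 3, and RLE factors and cells of 1000 or more UMIs 2 each in monocytes.

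The replicate block pairs samples of 1 mouse and keeps only mice with both, so samples and genes tested change with it, and 8 of 34 values changed. It called 1 gene in T cells and 79 in monocytes of Distal normal tissue and MET, and 3 in T cells and 58 in monocytes of margin and core, turned Tnf in macrophages of margin and core to -0.22, and changed no other call of a member.

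Xcl1 in NK cells between Primary and MET Core passed with RLE factors (-2.27) and no filter (-2.26). Tnf in macrophages between Distal normal tissue and MET turned to -0.10 with DESeq2, -0.047 with RLE, -0.064 with 5 cells and -0.049 with cells of 1000 or more UMIs. The last setting turned Xcl1 in NK cells between margin and core to 0.039. In the permutation tests, cells of 1000 or more UMIs gave 0.77 for Xcl1 in NK_Xcl1, 3.60 for Xcl1 in T cells (now passing, exact permutation p = 0.00909), 1.92 for Tnf in monocytes (now passing, exact permutation p = 0.0303) and 2.66 for Tnf in Mac_Isg20 (no longer passing, exact permutation p = 0.0788) between Primary and core, and 0.070 for Xcl1 in NK cells and 0.56 for Tnf in macrophages between margin and core. Sums of 5 cells gave 0.26 for the latter and 0.17 for Tnf in macrophages of Distal normal tissue and MET. A pseudocount of 100 gave 2.55 for Xcl1 in T_CD8_Lag3 and 0.86 for Tnf in macrophages between Primary and core, neither passing (exact permutation p = 0.0591 and 0.0799). Without the richest cell, Xcl1 was 0.59 in NK_Xcl1, 0.050 in T cells of Normal and Pre-MET, and -0.25 in T cells of Distal normal tissue and MET, where it was -0.077 without MET mouse 26. Thinned shares differed by 9.20 points for Xcl1 in T_CD8_Lag3, 6.51 for Tnf in Mac_Isg20 and 4.50 for Tnf in macrophages of Primary and core, by 0.118 for Xcl1 in T cells of Normal and Pre-MET and by -0.398 in those of Distal normal tissue and MET. Thinning also lowered the share of cells with Xcl1 to 5.95% in NK_Ncr1, 40.0% in NK_Xcl1, 5.65% in T_CD8_Gzmk and 11.6% in T_CD8_Lag3, and with Tnf to 6.89% in Mac_Gpnmb, 5.31% in Mac_Isg20, 15.8% in Neut_PMN-MDSC and 3.89% in Neut_Ptgs2.

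Leaving out 1 sample at a time, with a lone sample assumed to vary like the other group, gave 0 to 42 genes in T cells, 0 to 1 in NK cells, 87 to 138 in monocytes and 0 to 7 in neutrophils of Normal and Pre-MET, and 1 to 10 in T, 2 to 5 in NK, 0 to 15 in monocytes and 45 to 93 in macrophages of Primary and core. In the latter, Xcl1 ranged from -3.11 to -0.069 in NK cells by edgeR, and in the permutation tests from 1.60 to 3.23 in T cells, 2.98 to 5.12 in T_CD8_Lag3 and -1.37 to 0.64 in NK_Xcl1, and Tnf in macrophages from 1.63 to 2.53. Between margin and core, Xcl1 in T_CD8_Lag3 ranged from 2.33 to 6.16 and Tnf in macrophages from -0.67 to 0.20.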
